A study of Mus musculus with 6 samples.

Results

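Amino acid transporter genes were followed through 6 RNA-seq libraries from the mouse embryonic stem cell line E14, of which 3 are labelled control (wild type, WT) and 3 Rif1-KO. The genes were taken by symbol from the solute carrier families Slc1, Slc6, Slc7, Slc36, Slc38 and Slc43. Of 33924 gene symbols in the count tables, 57 belonged to these 6 families. The rule left 2 of them out, so 55 genes are described here. Per the labels, both groups were E14 cells in 2i medium, which holds embryonic stem cells in the naive state, on plates coated with 0.1% gelatin, and were sampled at a time called Day 0. The treatment text is also the same for all 6 libraries: 0.1 µM 4-OHT (4-hydroxytamoxifen) for 2 days and then 1 day without it. The file headers, however, carry 2i for control and TAM for Rif1-KO, so an effect of the genotype and a difference in drug or medium cannot be told apart. The sources used here do not give how Rif1 was disrupted or whether each group came from 1 clone. Nothing in the labels makes the replicates separate cultures. The p-values therefore cover the spread among these libraries, and that spread may be technical.

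Cells cannot make every amino acid, and they take up the rest through membrane carriers with overlapping substrates. Some carriers use the sodium gradient to concentrate an amino acid, as the Slc1, Slc6 and Slc38 proteins do, while several Slc7 proteins exchange an amino acid inside the cell for another outside. Some Slc36 and Slc38 proteins sit in the lysosome membrane, where amino acid supply is read by the machinery that controls mTORC1, a growth-regulating kinase complex. Not every member carries amino acids: the Slc6 family also holds carriers of creatine, taurine, GABA and monoamines, and Slc43a3 carries purine nucleobases.

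Libraries held 8383632 to 10980777 counts. Rif1 itself, the targeted gene, was read at 673, 657 and 700.1 CPM (counts scaled to library size) in control against 602, 604 and 664 CPM in Rif1-KO libraries, as labelled. Its log2 fold change was −0.12 ± 0.05 (SE) with an adjusted p of 0.0509 in edgeR's quasi-likelihood test, so whole-gene counts did not check the label, and the call turned with the processing. The summed level of 7 embryonic stem cell markers was 3739 to 3775 CPM in control and 3704 to 3740 CPM in the Rif1-KO libraries. That sum covers changes in both directions: 3 rose (Nanog, Klf4 and Tbx3), 1 fell (Sox2) and 3 did not pass. Sox2 went from 683 to 469 CPM on average (−0.54 ± 0.05, adjusted p = 1.78e-08). Tbx3 went from 332 to 467 CPM (0.49 ± 0.05, adjusted p = 2.52e-08). Summed primitive endoderm markers were at 15.7 to 17.3 CPM in control and 30.3 to 32.8 CPM in Rif1-KO, and all 5 tested of 7 rose. The untested ones differed in direction: Sox7 averaged 0.543 CPM in control and 0.0975 CPM in Rif1-KO, and Foxa2 0.220 and 0.432 CPM. Of the trophectoderm markers, 2 of 3 tested rose (Krt8 and Krt18) and the sum went from 56.6–57.7 to 146–161.5 CPM, while Cdx2 was listed at 0 in all libraries. Neuron markers had sums of 209–253.8 CPM for control and 186–189 CPM for Rif1-KO, with 0 of 4 tested higher and 2 lower, and Slc17a6 at 0. Most of that sum was Stmn2, at 211 and 173 CPM on average. Snap25 averaged 0.418 and 0.820 CPM, and Syt1 0.0737 and 0.243 CPM. Fibroblast markers summed to 11.2–18.8 and 8.75–9.19 CPM, with 1 of 2 tested lower and Twist2 at 0. The lower gene, Thy1, made up most of this sum, at 11.3 and 5.67 CPM on average. Col1a1 did not pass, and Col1a2, untested, averaged 0.356 and 0.897 CPM. Astroglia markers summed to 151.7–155 and 144.8–149.9 CPM, with the 1 tested gene, Aldh1l1, not passing and Gjb6 at 0. Nearly all of that sum was Aldh1l1, at 152.8 and 146.8 CPM on average. Every other astroglia marker was under 1 CPM in each library. In bulk samples, fewer cells of a type and less RNA per cell cannot be told apart, and the part of these other cell types in the results below was not tested.

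Transporter genes changed in both directions, by modest amounts. Of the 55, 31 had enough reads to be tested, 24 did not, and 4 of these 24 (Slc6a14, Slc6a18, Slc7a12 and Slc7a13) had no count in any library. At a Benjamini-Hochberg adjusted p under 0.05, 10 rose (32.3% of 31), 12 fell (38.7%) and 9 did not pass. Over all 14250 tested genes, 26.1% rose and 24.8% fell, 50.9% in either direction, against 71.0% of the 31. At least 1.5-fold changes made up 29.0% of the 31, with 6 that rose and 3 that fell. Among all tested genes this share was 15.4%, with 10.5% higher and 4.92% lower. At least 2-fold changes were called for 3 members (9.68% of 31), Slc1a6, Slc36a3 and Slc43a3, where the background is 6.55%. An absolute log2 fold change of at least 0.5 was called for 11 (35.5%), where the background is 19.2%. The libraries of the groups did not overlap for 23 of the 31 members (74.2%), against 57.2% of all tested genes. The median log2 fold change was −0.01 over the 31 members and 0.0035 over all tested genes. Slc1a6 and Slc36a3 reached the limit on low counts in all 3 libraries of only 1 group, so for them passing it and differing are not independent.

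**Figure D1:**
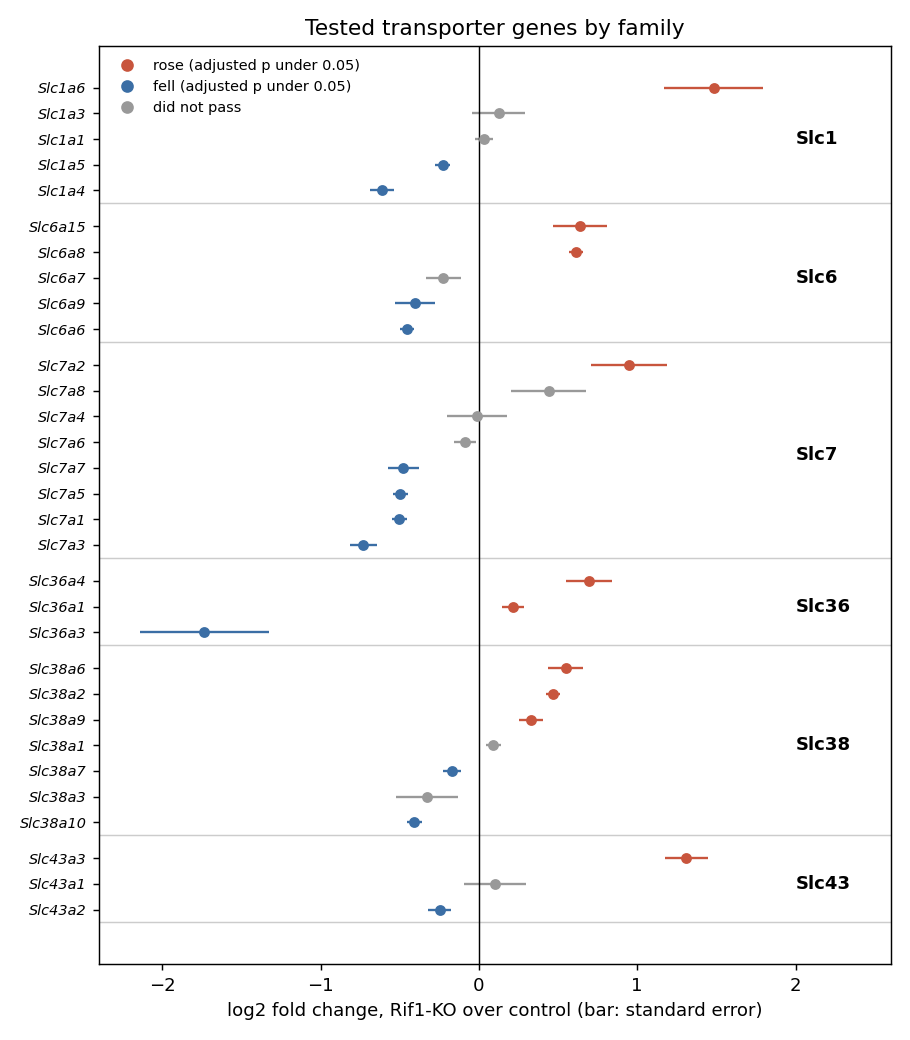
Log2 fold change of each of the 31 tested transporter genes, Rif1-KO over control, by family, with bars for the standard error and colours for the call. Slc7 holds 4 members that fell and 1 that rose, while Slc38 holds 3 that rose and 2 that fell.

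Members with high and low levels were set side by side, and the difference between these classes was not tested. Levels are compared between genes as CPM per kilobase of exon (CPM/kb). Of the 11 members with a mean of at least 10 CPM/kb, 7 fell, 2 rose and 2 did not pass, with a median log2 fold change of −0.23. Of the 12 members between 1 and 10 CPM/kb, 4 fell, 5 rose and 3 did not pass. Under 1 CPM/kb stood 32 members, of which 8 were tested, 3 rose, 1 fell and 4 did not pass. The share of tested members called was thus larger in the classes of higher level. No share among all tested genes of like level was computed. Whether the counts of a class are unusual for genes of that level was therefore not tested. The highest mean levels, in order, were those of Slc7a5, Slc6a8, Slc6a6, Slc1a5 and Slc38a2. In control, Slc6a8 at 37.8 ± 0.567 CPM/kb and Slc1a5 at 38.3 ± 1.36 CPM/kb (SD, n = 3) were neighbours whose spreads overlapped.

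**Figure D2:**
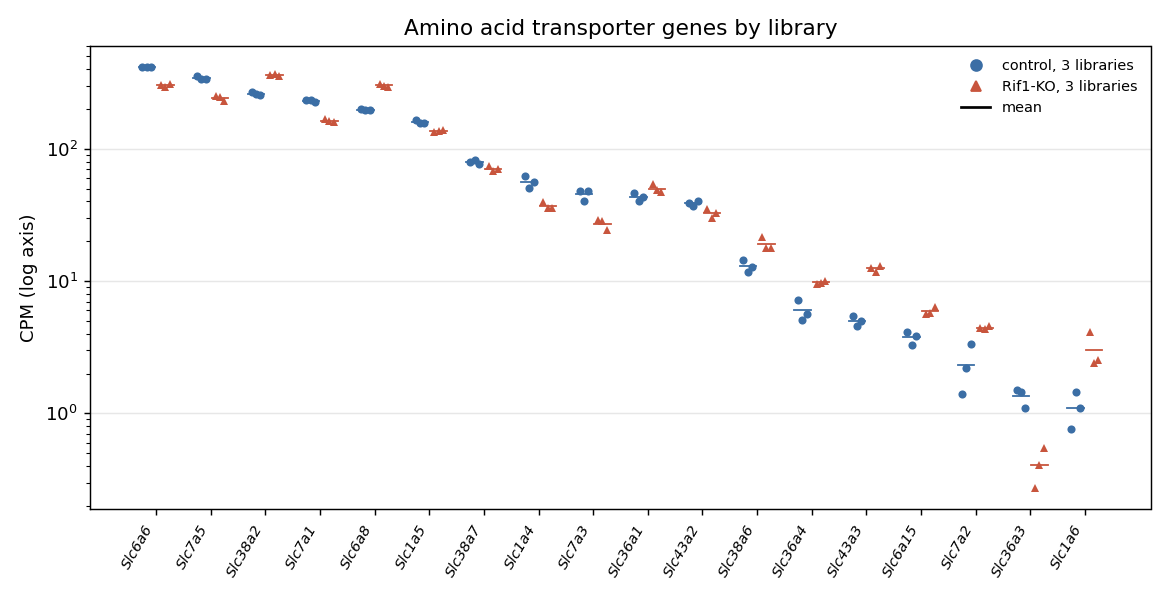
CPM of the 18 transporter genes named by the rule, in each of 3 control (circles) and 3 Rif1-KO (triangles) libraries, on a log axis, with a line for each mean. Slc7a5, Slc7a1, Slc1a4 and Slc7a3 are lower in every Rif1-KO library, and Slc6a8, Slc38a2 and Slc43a3 are higher.

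Promoters were searched for motifs known from amino acid or lysosome regulation, and 4 stretches are printed as examples chosen after the calls were seen. TGATGNAA is the core of the amino acid response element, to which the stress-induced factor ATF4 can bind, and CACGTG is the E-box read by MYC and by the TFE family of lysosome regulators. Both were searched on both strands in 300-base windows around gene starts from RefSeq (GRCm38.p6), which held a promoter for 37 of the 55 members and for 27025 genes in all. TGATGNAA was found in 2 of the 37 members (5.41%), Slc1a4 and Slc7a7, and in 4.51% of all genes. CACGTG was found in 8 of the 37 (21.6%), and in 8.09% of all genes. Of these 8, 4 were tested: Slc1a6 and Slc36a1 rose, Slc38a7 fell and Slc43a1 did not pass. The 4 stretches below are from that table, 5′ to 3′ on the strand of the gene, with the motif in capitals. Slc1a4 lies on the minus strand at chr11:20332699-20332728, Slc7a7 on the minus strand at chr14:54417703-54417952, Slc36a1 on the plus strand at chr11:55204090-55204339 and Slc38a7 on the minus strand at chr8:95853492-95853741. A match is a description of these letters and shows no binding.
Slc1a4: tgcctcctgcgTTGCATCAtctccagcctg
Slc7a7: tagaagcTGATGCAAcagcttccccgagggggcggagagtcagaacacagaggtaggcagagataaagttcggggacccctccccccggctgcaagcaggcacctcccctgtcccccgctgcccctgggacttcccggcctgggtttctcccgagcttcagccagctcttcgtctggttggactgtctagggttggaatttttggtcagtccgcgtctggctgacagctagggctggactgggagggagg
Slc36a1: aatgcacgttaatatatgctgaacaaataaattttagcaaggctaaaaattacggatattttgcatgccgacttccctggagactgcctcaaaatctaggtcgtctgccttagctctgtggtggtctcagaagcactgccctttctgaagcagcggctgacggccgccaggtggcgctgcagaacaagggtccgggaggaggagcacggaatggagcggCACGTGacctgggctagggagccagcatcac
Slc38a7: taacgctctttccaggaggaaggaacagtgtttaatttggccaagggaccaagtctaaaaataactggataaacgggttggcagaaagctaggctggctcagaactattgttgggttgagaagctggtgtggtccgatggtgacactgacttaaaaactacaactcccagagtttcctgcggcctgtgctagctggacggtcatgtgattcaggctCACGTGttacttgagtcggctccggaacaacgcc
In Slc1a4 the motif starts 4 bases before the gene start and runs across it, and in Slc7a7 it starts 243 bases before the start, in 1 of 5 windows listed. The printed E-box starts 31 bases before the start of Slc36a1, which rose, and 34 bases before that of Slc38a7, which fell. The full window of Slc36a1 holds 2 matches, of which 1 is in the printed stretch. These calls were lost in 4 (Slc36a1) and 5 (Slc38a7) of 14 alternative fits.

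Heteromeric transporters pair a light chain, which carries the amino acid, with a heavy chain that brings it to the surface. The most abundant light chain among the genes described here fell together with its heavy chain. Slc7a5 (LAT1, an exchanger of large neutral amino acids such as leucine) was read at 357, 338 and 336 CPM in control and at 251, 248 and 231 CPM in the Rif1-KO libraries. Every Rif1-KO library lay below every control library, and Slc7a5 fell by 29.2% (log2 fold change −0.50 ± 0.05, adjusted p = 4.1e-08). Per length it was the highest member in both groups, at 92.7 ± 3.06 CPM/kb in control and 65.6 ± 2.88 CPM/kb in Rif1-KO. Its heavy chain Slc3a2 (4F2hc) was read at 331, 354 and 341 CPM in control and at 285, 276 and 287 CPM in Rif1-KO. The groups did not overlap, and the log2 fold change was −0.27 ± 0.05 (adjusted p = 4e-05). Slc7a7 (y+LAT1, which exchanges cationic for neutral amino acids) was read at 21.0, 20.05 and 19.5 CPM and at 14.6, 15.3 and 13.5 CPM, a log2 fold change of −0.48 ± 0.10 (adjusted p = 0.00036). On the other strand, 7.0% of its exon bases overlap Oxa1l. Oxa1l fell too, by −0.24 ± 0.05 on the log2 scale (adjusted p = 0.000515), and without a stated strand setting reads in the overlap cannot be told apart. Slc7a6 (y+LAT2) had non-overlapping groups, at 39.5 ± 1.82 and 37.1 ± 0.601 CPM, but did not pass (−0.09 ± 0.07, adjusted p = 0.304). Slc7a8 (LAT2) stood at 2.22 ± 0.329 and 3.03 ± 0.550 CPM, which did not pass (adjusted p = 0.127). Of the 9 light chains kept by the rule, 4 were tested, 2 fell and 2 did not pass. The summed level of the 9 was 407 ± 12.5 CPM in control and 299 ± 10.7 CPM in Rif1-KO.

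Cationic amino acid transporters import arginine and lysine without a heavy chain, and the main members of this group fell as well. Slc7a1 (CAT1, the widely expressed arginine importer) was read at 233, 235 and 228 CPM in control and at 169, 162 and 159 CPM in the Rif1-KO libraries. The groups were well apart, and Slc7a1 fell by 29.4% (log2 fold change −0.50 ± 0.05, adjusted p = 1.78e-08). Slc7a3 (CAT3), on the X chromosome, was read at 47.8, 40.1 and 47.8 CPM in control and at 28.7, 28.6 and 24.3 CPM in Rif1-KO. It fell by 39.8% (−0.73 ± 0.08, adjusted p = 5.88e-07), with no overlap. Slc7a2 (CAT2) went the other way from a low level, from 1.41, 2.19 and 3.32 CPM to 4.43, 4.34 and 4.59 CPM. Its log2 fold change was 0.95 ± 0.24 (adjusted p = 0.00247), and the control libraries were far more spread than the Rif1-KO libraries. Slc7a4, a related protein with no established transport activity, had 4.22 ± 0.923 CPM in control and 4.22 ± 0.130 CPM in Rif1-KO (adjusted p = 0.96). Together the 5 cationic members stood at 284 ± 3.53 CPM in control and 199.9 ± 7.02 CPM in Rif1-KO. Slc7a1 thus stayed the most abundant of them, at 20.1 ± 0.328 and 14.2 ± 0.461 CPM/kb.

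The Slc1 family holds exchangers of small neutral amino acids and the glutamate transporters. Both neutral exchangers fell. Slc1a4 (ASCT1, for alanine, serine, cysteine and threonine) was read at 62.5, 50.8 and 56.6 CPM in control and at 39.6, 35.9 and 35.5 CPM in the Rif1-KO libraries. The groups did not overlap, and Slc1a4 fell by 34.7% (−0.61 ± 0.08, adjusted p = 1.47e-06). Slc1a5 (ASCT2, which also carries glutamine) was read at 166, 156 and 157 CPM and at 135, 136 and 138 CPM. It fell by 14.6% (−0.23 ± 0.05, adjusted p = 0.000393), a smaller change with no overlap. Of the glutamate transporters, 3 were tested, 1 rose and 2 did not pass. Slc1a1 (EAAT3) was the abundant one, at 86.9, 80.1 and 80.5 CPM in control and 87.6, 82.6 and 82.9 CPM in Rif1-KO, and the groups overlapped (0.03 ± 0.05, adjusted p = 0.646). Of its exon bases, 31.9% overlap another gene on the other strand, 4430402I18Rik, which was itself read at 0.766 and 0.724 CPM on average. Slc1a6 (EAAT4, known from Purkinje cells) rose from 0.757, 1.46 and 1.11 CPM to 4.16, 2.42 and 2.52 CPM (1.48 ± 0.31, adjusted p = 0.000527). Slc1a3 (GLAST, the glial glutamate transporter) had overlapping groups, at 5.19 to 8.50 and 6.60 to 7.58 CPM (adjusted p = 0.555).

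In the Slc6 family the abundant members moved in opposite directions. Slc6a6 (TauT, the taurine transporter) was read at 413, 416 and 413 CPM in control and at 305, 296 and 307 CPM in the Rif1-KO libraries. It fell by 26.9% (−0.45 ± 0.04, adjusted p = 4.35e-08), and the 3 libraries of each group lay close together. Slc6a8 (the creatine transporter), on the X chromosome, was read at 200.5, 196 and 195 CPM in control and at 312, 301 and 292 CPM in Rif1-KO. It rose by 53.1% (0.61 ± 0.04, adjusted p = 9.48e-10), again with no overlap. Per length, Slc6a6 was the higher of the pair in control (49.0 ± 0.201 against 37.8 ± 0.567 CPM/kb), and Slc6a8 the higher in Rif1-KO (57.9 ± 1.83 against 35.8 ± 0.700 CPM/kb). Slc6a15 (B0AT2, for branched-chain amino acids and proline) rose from 4.11, 3.28 and 3.87 CPM to 5.60, 5.76 and 6.34 CPM (0.64 ± 0.17, adjusted p = 0.00396), a call lost with DESeq2 (adjusted p = 0.0538). Slc6a9 (GlyT1, a glycine transporter) fell from 9.73, 11.3 and 10.8 CPM to 8.50, 7.68 and 7.77 CPM (−0.41 ± 0.13, adjusted p = 0.0117). That call was lost with DESeq2 (adjusted p = 0.0822) and with an offset for GC content and length plus a replicate block (adjusted p = 0.0559). Other-strand genes, B4galt2 among them, overlap 30.2% of the exon bases of Slc6a9. B4galt2 did not pass (0.14 ± 0.11, adjusted p = 0.327). Slc6a7, a proline transporter, had overlapping groups, at 22.4 ± 2.07 and 19.2 ± 3.08 CPM (adjusted p = 0.093). It passed without Rif1-KO replicate 3 (adjusted p = 0.017). The monoamine transporters Slc6a2, Slc6a3 and Slc6a4 were not tested and summed to 0.787 ± 0.196 and 1.20 ± 0.431 CPM.

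Members of the Slc38 family carry glutamine and other small neutral amino acids with sodium. Slc38a1 and Slc38a2 belong to transport system A, are its only members among the genes described here, and are next to each other on chromosome 15. Slc38a2 (SNAT2) was read at 268, 258 and 256 CPM in control and at 359.6, 366 and 356 CPM in the Rif1-KO libraries. It rose by 38.3% (0.47 ± 0.04, adjusted p = 3.43e-08), with the groups far apart. Slc38a1 (SNAT1) was read at 206, 195 and 206 CPM and at 222, 204 and 221 CPM, with overlapping groups, and did not pass (0.09 ± 0.05, adjusted p = 0.116). Together they stood at 463 ± 10.2 CPM in control and 576 ± 6.13 CPM in Rif1-KO. Slc38a9, a lysosomal protein that senses arginine for mTORC1, rose from 29.5, 26.5 and 28.1 CPM to 33.3, 35.3 and 37.6 CPM (0.33 ± 0.08, adjusted p = 0.0014). Slc38a6 rose from 14.5, 11.8 and 12.7 CPM to 21.4, 17.7 and 17.8 CPM (0.55 ± 0.11, adjusted p = 0.000426). Of its 50-base stretches, 44.2% also occur in other genes, so its counts are uncertain. Slc38a10 fell from 132, 128 and 133 CPM to 99.4, 101 and 95.5 CPM (−0.41 ± 0.05, adjusted p = 7.1e-07), with no overlap. Slc38a7, which exports glutamine and asparagine from lysosomes, fell from 79.9, 82.0 and 76.5 CPM to 73.6, 68.1 and 70.1 CPM (−0.17 ± 0.06, adjusted p = 0.0149). That small change was lost in 5 of 14 alternatives, and adjusted p ran from 0.0124 to 0.234 over all 14. With the GC and length offset it was −0.079 (adjusted p = 0.226), and −0.080 with the block added (0.234). The call was also lost with DESeq2 (0.0567), without control replicate 2 (0.0532) and without Rif1-KO replicate 2 (0.071). Slc38a3 (SNAT3, of system N) stood at 4.26 ± 0.641 and 3.36 ± 0.381 CPM, which did not pass (adjusted p = 0.166).

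The Slc36 family gave 2 members that rose and 1 that fell. Slc36a4 (PAT4) rose from 7.24, 5.10 and 5.64 CPM to 9.58, 9.70 and 10.1 CPM (0.69 ± 0.15, adjusted p = 0.000507), and the groups did not overlap. Slc36a1 (PAT1, found in lysosomes) was read at 46.5, 40.2 and 42.9 CPM and at 53.9, 49.0 and 47.6 CPM (0.22 ± 0.07, adjusted p = 0.0159). DESeq2 did not call it (adjusted p = 0.0913), nor did edgeR when control replicate 2 (0.0829), its replicate 3 (0.058) or replicate 1 of Rif1-KO (0.114) was left out. Slc36a3, which lies beside Slc36a2 and Slc36a1 on chromosome 11, fell from 1.51, 1.46 and 1.11 CPM to 0.271, 0.404 and 0.547 CPM (−1.73 ± 0.41, adjusted p = 0.00131). That rests on 36 counts in control and 12 in Rif1-KO. Slc36a2 had 23 and 24 counts and was not tested.

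Slc43 proteins are facilitative transporters, which need no ion gradient. Slc43a3, the nucleobase carrier, was the member of this family that rose. It was read at 5.41, 4.62 and 4.98 CPM in control and at 12.5, 11.8 and 13.1 CPM in the Rif1-KO libraries, a 2.48-fold increase (1.31 ± 0.14, adjusted p = 1.31e-07). Slc43a2 (LAT4, for large neutral amino acids) fell from 39.0, 37.2 and 40.3 CPM to 35.0, 30.2 and 32.8 CPM (−0.25 ± 0.07, adjusted p = 0.0088), with no overlap. It did not pass without Rif1-KO replicate 2 (adjusted p = 0.0595). Slc43a1 (LAT3), separated from Slc43a3 by 1 gene on chromosome 2, did not pass (0.10 ± 0.20, adjusted p = 0.695).

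Among the 24 members too low to test, a few Slc6 carriers differed in their few counts. These were picked after their values were seen, and the intervals are exact 95% intervals that cover counting error only. Slc6a12 (BGT1, a betaine and GABA transporter) had 1 count over the control libraries and 20 over the Rif1-KO libraries, a depth-adjusted ratio of 17.6 (2.82 to 730.1). Slc6a13 (GAT2), its neighbour on chromosome 6, had 2 and 23 counts, a ratio of 10.1 (2.50 to 88.6). Slc6a17, a vesicular neutral amino acid transporter, had 1 and 16 counts, a ratio of 14.1 (2.19 to 591), but its groups overlapped because a Rif1-KO library was at 0. When the limit on low counts was dropped, edgeR's adjusted p was 0.00064 for Slc6a12, 0.000657 for Slc6a13 and 0.00432 for Slc6a17. The dopamine transporter Slc6a3 had 17 and 34 counts, a ratio of 1.76 (0.957 to 3.36). Every other untested member had at most 23 counts in control and 24 in Rif1-KO.

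The 6 families were set against each other by their medians and by their summed levels. Median log2 fold changes over tested members were 0.03 for Slc1 (5 tested), −0.23 for Slc6 (5), −0.28 for Slc7 (8), 0.22 for Slc36 (3), 0.09 for Slc38 (7) and 0.10 for Slc43 (3). The sign turned for Slc1 without control replicate 1 (−0.0313) and for Slc43 without control replicate 2 (−0.0672), and the median of all 31 members was −0.0672 without control replicate 2. The Slc6 median was −0.11 without Rif1-KO replicate 2 and −0.13 with the GC and length offset. Differences between families were not tested. By summed level over all members, Slc7 went from 142 ± 4.00 CPM/kb in control to 102 ± 3.92 CPM/kb in Rif1-KO, and from 35.2% to 27.7% of the total of the 6 families. Without Slc7a5 the sum of Slc7 was 48.9 ± 1.02 and 36.4 ± 1.05 CPM/kb, so the lower sum did not rest on that gene alone. Slc1 went from 64.1 to 54.7 CPM/kb. Slc6 went from 96.3 to 102.5 CPM/kb, but from 58.4 to 44.6 CPM/kb without Slc6a8, so its direction turned on that member. Slc38 went from 85.2 to 91.1 CPM/kb, and from 55.7 to 50.3 CPM/kb without Slc38a2. Slc36 and Slc43 were small, at 9.43 and 10.8 CPM/kb and at 5.68 and 6.80 CPM/kb. These sums are descriptions without a test.

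**Figure D3:**
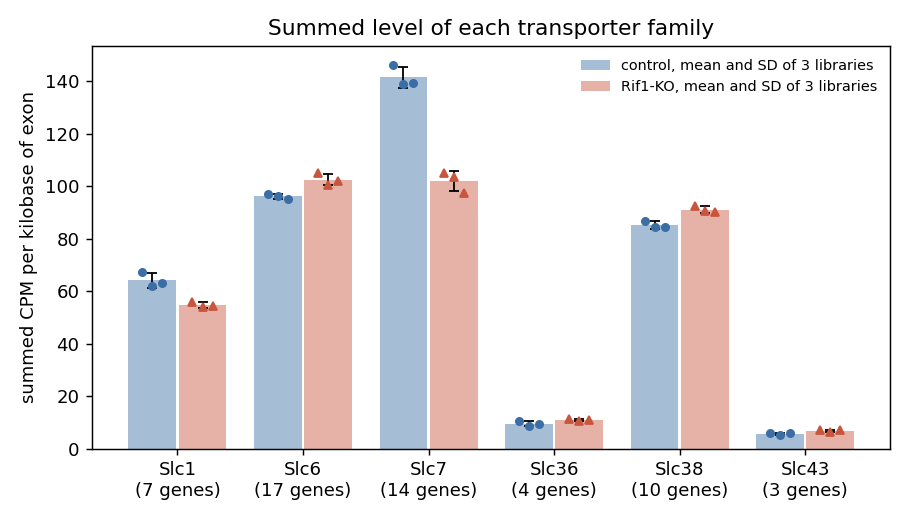
Summed CPM per kilobase of exon for each family, with bars for the mean, whiskers for the SD and points for the 3 libraries of each group. Slc7 stands at 142 in control and 102 in Rif1-KO, the widest gap of the 6 families.

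Genes that work beside these carriers were read from 5 related lists, with 74 genes in the table and 64 tested. Of these, 13 rose (20.3%), 24 fell (37.5%) and 27 did not pass, with a median log2 fold change of −0.06. The share called, 57.8%, stands beside 50.9% of all tested genes, of which 26.1% rose and 24.8% fell, and the counts of each list below are read against these shares. Of the partner subunits only Slc3a2 was tested. Mitochondrial amino acid carriers gave 5 lower, 0 higher and 6 not passing of 11 tested. Only 3 were lower without Rif1-KO replicate 1, and 1 was higher with a replicate block, without control replicate 1 or without Rif1-KO replicate 3. Sfxn1, the mitochondrial serine carrier, went from 105 ± 6.01 to 74.3 ± 3.56 CPM (−0.50 ± 0.06, adjusted p = 4.43e-07). Slc25a12, an aspartate and glutamate carrier, went from 49.4 ± 2.13 to 36.5 ± 0.461 CPM (−0.44 ± 0.07, adjusted p = 1.36e-05). Carriers of other families gave 1 higher, 2 lower and 5 not passing of 8, and these few calls moved with the left-out library (0 to 1 higher, 1 to 2 lower). Ctns, the lysosomal cystine exporter, rose (0.25 ± 0.08, adjusted p = 0.00997) but not with DESeq2 (0.0648) or without control replicate 3 (0.0696). Slc15a2, a peptide transporter, fell (−0.37 ± 0.10, adjusted p = 0.00405). Slc32a1, the vesicular GABA and glycine carrier, fell (−0.63 ± 0.24, adjusted p = 0.0354), a call lost in 7 of 14 alternatives, among them the fits without control replicate 1 (adjusted p = 0.147), control replicate 2 (0.0543), Rif1-KO replicate 2 (0.0924) and Rif1-KO replicate 3 (0.0931).

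Genes of amino acid sensing upstream of mTORC1 were all tested, and of 28, 8 rose, 9 fell and 11 did not pass. The 4 with the smallest adjusted p rose. Fnip2 and Fnip1, partners of folliculin, had log2 fold changes of 0.38 ± 0.04 (adjusted p = 4.51e-07) and 0.37 ± 0.05 (1.05e-06). Rragc, a Rag GTPase that brings mTORC1 to the lysosome, went from 51.2 ± 1.86 to 69.7 ± 4.69 CPM (0.45 ± 0.06, adjusted p = 6.94e-06). Tsc1, of the complex that restrains mTORC1, went from 109 ± 2.86 to 136 ± 3.06 CPM (0.32 ± 0.05, adjusted p = 1.29e-05). Its partner Tsc2, next by adjusted p and named after its values were seen, fell from 180.2 ± 1.97 to 147 ± 1.81 CPM (−0.30 ± 0.04, adjusted p = 1.43e-05), with no overlap.

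Enzymes that use or make the carried substrates gave 4 higher, 7 lower and 5 not passing of 16 tested. Gatm, which makes the creatine precursor from arginine and glycine, was read at 1.73, 2.79 and 2.32 CPM in control and at 10.8, 13.2 and 11.6 CPM in Rif1-KO, a 5.22-fold increase (2.38 ± 0.18, adjusted p = 1.44e-09). Gamt, which takes the next step of creatine synthesis and is named after its values were seen, went the other way, from 3.57, 3.64 and 4.42 CPM to 3.16, 1.92 and 1.64 CPM (−0.76 ± 0.24, adjusted p = 0.0127). The Gamt call was lost with DESeq2 (adjusted p = 0.0697) and in edgeR when control replicate 3 (0.0651) or, of Rif1-KO, replicate 2 (0.0567) or 3 (0.0545) was left out. Aldh18a1, of proline synthesis, went from 141 ± 4.10 to 91.3 ± 0.701 CPM (−0.63 ± 0.05, adjusted p = 1.74e-09). Odc1, which turns ornithine into the polyamine putrescine, went from 173 ± 2.998 to 123 ± 7.25 CPM (−0.49 ± 0.05, adjusted p = 1.19e-07).

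**Figure D4:**
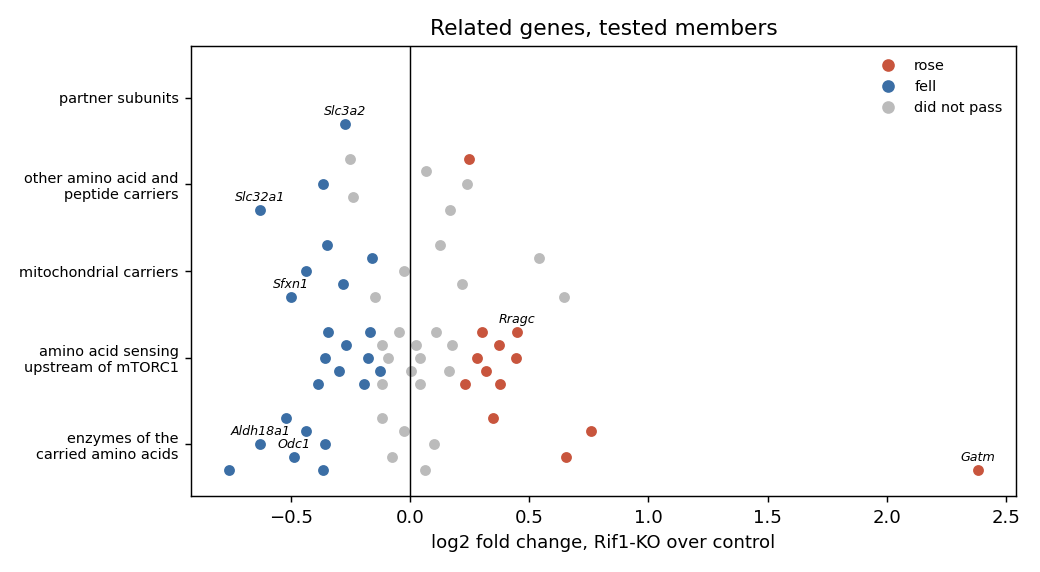
Log2 fold change, Rif1-KO over control, of each tested gene in 5 related lists, with colours for the call (the height within a list has no meaning). Gatm stands apart at 2.38, and no mitochondrial carrier rose.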

How the data were processed

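Each library came with a table of raw, unnormalized read counts by gene symbol, as the authors deposited it. Per the submitters' processing notes, reads were handled with STAR, featureCounts 1.6.2 and the mouse build mm9. The sources used here do not give the annotation release, strand setting or handling of multi-mapping reads.

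Counts were tested here with edgeR 4.0.16 in R 4.3.3 on all 6 libraries (filterByExpr, TMM scaling, quasi-likelihood test, group as the only term, 14250 genes, Benjamini-Hochberg adjustment over all of them, threshold 0.05). CPM used TMM-scaled library sizes. Errors are SE for log2 fold changes and SD over 3 libraries for levels. Exon lengths, overlaps and shared sequence came from GRCm38 annotation, matched by symbol for 31003 of 33924 symbols, and promoters from RefSeq. Alternatives were DESeq2 1.42.0, limma-voom (limma 3.58.1), other scaling and filters, a replicate block, a GC and length offset, another gene length, and each library left out in turn. The tests were tried on simulated counts. Libraries of a group all differed from each other beyond sampling noise (chi-square per degree of freedom 1.27 to 4.22).

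The members and lists were chosen with earlier results of these data known. The named members are those that passed with an absolute log2 fold change of at least 0.5 (11) and the top 2 of each family by level per kilobase (12), 18 in all. Other members are given by role, and from each related list up to 4 genes in order of adjusted p. Some genes that these rules take are left out of the text.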

Additional observations from a re-analysis of the deposited data

How the results depend on the processing

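Of 22 members that passed, 17 kept their call and direction in all 14 alternative fits, and no call reversed. Slc6a9, Slc6a15, Slc36a1, Slc38a7 and Slc43a2 lost theirs in at least 1 fit. Of the 9 that did not pass, only Slc6a7 passed in any fit. For Rif1, the targeted gene (−0.12, adjusted p = 0.0509) the call changed with DESeq2 (−0.13, adjusted p = 0.0358), and at −0.12 with limma-voom (0.0264), DESeq2 size factors in edgeR (0.0453), no filter (0.0296), a filter of at least 1 CPM in at least 3 libraries (0.0422) and the replicate block (0.0227). With the GC and length offset it was −0.28, and −0.28 with the block added, and leaving out 1 library gave −0.17 to −0.0938, past the threshold without control replicate 2 or Rif1-KO replicate 3. The offset moved the median log2 fold change of Slc1 to −0.0142 (−0.015 with the block) and of Slc38 to 0.0239 (0.0237 with the block). Leaving out 1 library gave medians of −0.0672 to 0.0115 over all members, −0.0313 to 0.0468 for Slc1, −0.33 to −0.11 for Slc6, −0.33 to −0.26 for Slc7 and −0.0672 to 0.25 for Slc43. Carriers of other families counted 0 higher and 1 lower with DESeq2, 2 higher and 1 lower with the offset (2 and 1 with the block too), and 0 to 1 higher and 1 to 2 lower without 1 library. Mitochondrial carriers counted 1 higher with no filter, 1 higher with the block, 2 higher with the offset (2 with the block too), 3 lower with DESeq2, and 0 to 1 higher and 3 to 6 lower without 1 library. With the longest transcript as length, control levels were 97.7 CPM/kb for Slc7a5, 49.7 for Slc6a8 and 66.9 for Slc6a6, in the same order by mean of 6 libraries. The cause of these shifts was not tested.

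Replicate numbers are shared between the groups. Correlations of the deviations of same-numbered libraries were 0.0793, −0.0646 and 0.0461, and those of differently numbered libraries ran from −0.161 to 0.116. Pairing by number was therefore not seen, but so few libraries cannot exclude it. With the replicate block, 10 members were higher and 12 lower, as without it, and over all genes 3779 were higher and 3607 lower. Depth limits the 24 untested members: at a few counts per library, a difference in them was in most cases not detectable.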
